A study of Strongylocentrotus purpuratus with 6 samples.

Results

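Broad Pol II peaks are the peaks of 1000 to 6000 bp in the Pol II ChIP-seq peak list of 20 h sea urchin (Strongylocentrotus purpuratus) embryos. They were chosen by length alone, as the end minus the start of a peak, and numbered 25625 of the 554846 peaks in the list (4.62%). Chromatin of whole embryos at the hatching blastula stage was immunoprecipitated in 3 samples with the 8WG16 antibody, which binds the repeat in the C-terminal domain of the largest Pol II subunit, and each extract also gave 1 of 3 input samples. No treatment or genotype was compared. The authors combined the replicates, and the values used here are positions in 1 list of peaks on scaffolds of version 3.1 of the genome, with no score, read count or depth. With all replicates in 1 list there is no replicate error, so no p-value is given, and the 95% intervals below cover counting error only. Whole embryos mix the cells of all territories, and the list cannot be set against stage markers.

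Pol II is recruited to promoters, often pauses shortly after initiation and then elongates through the body of the gene. It is also found at active enhancers, where it makes short, unstable transcripts. In Pol II ChIP-seq, promoters and enhancers often give narrow peaks, whereas transcribed bodies can give wide stretches of signal. A cis-regulatory module (CRM) is a stretch of DNA that can direct expression of a gene, and it is tested by joining it to a basal promoter and a reporter and placing it in the embryo.

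The length of broad peaks describes the rule and is not a finding. Their median was 1390 bp, with quartiles of 1156 and 1869 bp and a highest value of 5999 bp. The short end of the range prevailed. Peaks of 1000 to 1500 bp made up 58.0% of the members, those of 1500 to 2000 bp 20.9%, and those of 2000 to 3000 bp 13.8%, where each bin leaves out its upper bound. The bin from 3000 bp held 1117 peaks, that from 4000 bp 483 and that of 5000 to 6000 bp, with its upper bound, 257. The limits cut through a smooth decline: 5909 peaks fell short of the lower limit by 100 bp or less and 4352 exceeded it by less than 100 bp, while 20 peaks of 5900 to 6000 bp lay just inside the upper limit and 23 were longer than it by 100 bp or less. Although few, broad peaks held 43.0 Mb, or 22.9% of all bases under Pol II peaks. The 528691 shorter peaks (under 1000 bp) held 74.2% and the 530 very long peaks (over 6000 bp) held 2.87%.

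**Figure D1:**
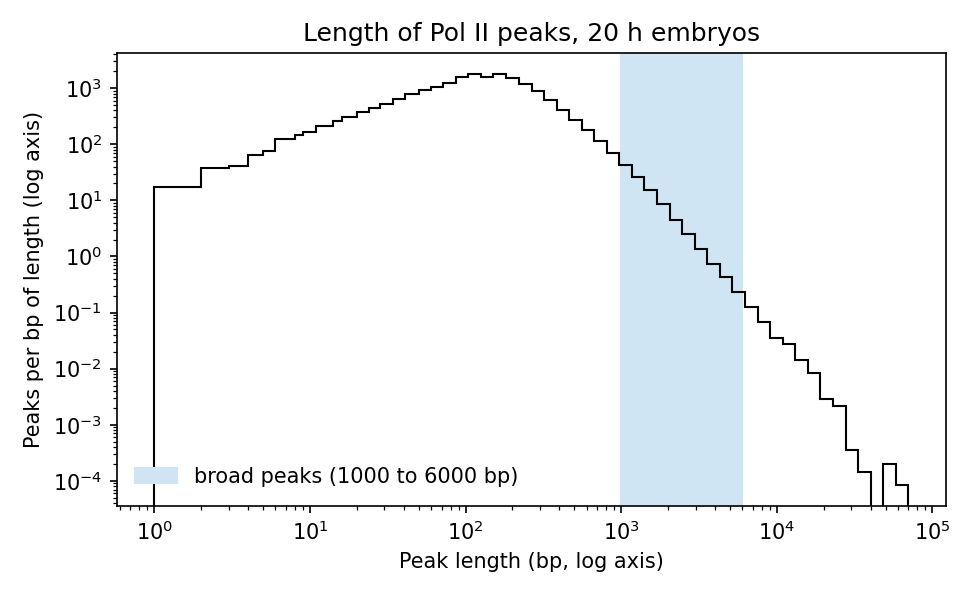
Number of Pol II peaks per bp of length (y, log axis) against peak length in bp (x, log axis) for all 554846 peaks, with the range of broad peaks shaded. The bins that hold the limits of 1000 and 6000 bp run from 972 to 1170 bp and from 5183 to 6241 bp. The curve therefore cannot show whether there is a step at either limit.

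Broad peaks lay closer to other peaks than shorter peaks did. The gap from the edge of a broad peak to the edge of the nearest other peak had a median of 173 bp (95% binomial interval 170 to 176 bp, quartiles 80.0 and 345 bp), against 296 bp (295 to 297 bp, quartiles 127 and 666 bp) for shorter peaks. A neighbour within 200 bp was found for 55.7% of broad peaks and 37.4% of shorter peaks. At the other end, 5.94% of broad peaks and 15.6% of shorter peaks had no other peak within 1000 bp. The gap on the wider side also differed, with medians of 613 bp for broad and 1079 bp for shorter peaks. Gaps come from the same ChIP and input comparison as the length that chose the members, so these values are descriptions without a test.

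Gaps were narrower for longer peaks along the whole range. Within the broad peaks, the median was 189 bp in the bin from 1000 bp, 165 bp in that from 1500 bp, 148 bp in that from 2000 bp and 131 bp (108 to 160 bp) at 5000 to 6000 bp. The bins from 3000, 4000 and 5000 bp (140, 138 and 131 bp) had overlapping intervals. Peaks from 700 bp to just under the lower limit had a median gap of 205 bp, and very long peaks had 123 bp (110 to 134 bp). Setting broad peaks only against shorter peaks of at least 300 bp, which had a median of 235 bp, reduced the difference from -123 to -62.0 bp.

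The difference also appeared within scaffolds. Of the 433 scaffolds with at least 10 broad peaks and a last peak beyond 500 kb, 419 had a lower median gap for broad than for shorter peaks and 13 a higher one. The ratio of the medians within a scaffold ranged from 0.180 to 2.12, with a median of 0.627.

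**Figure D2:**
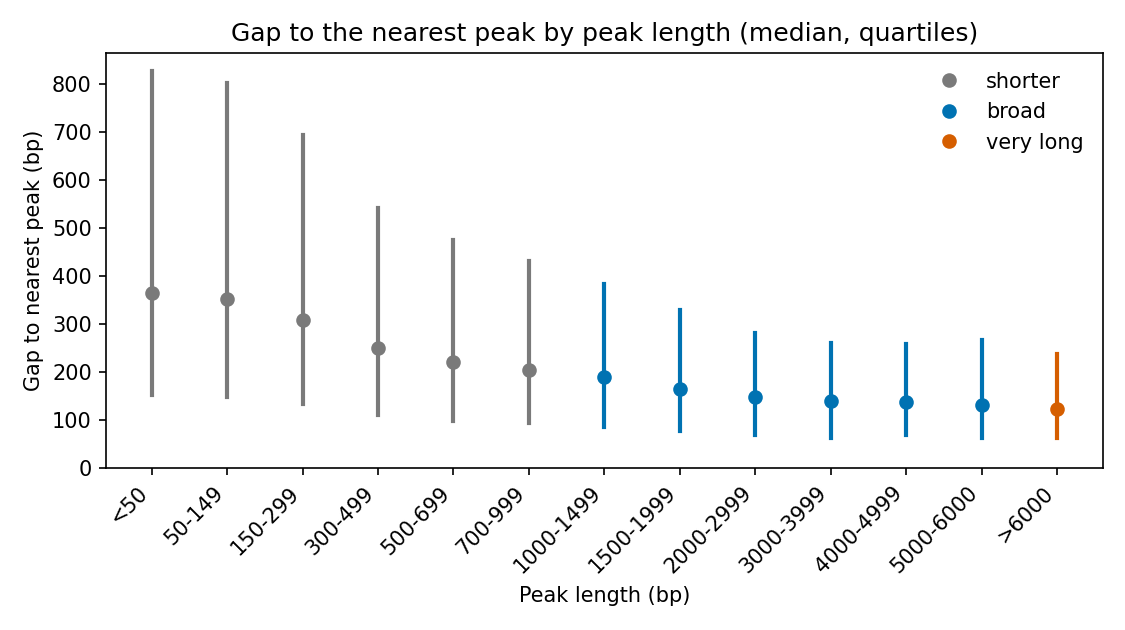
Gap in bp from a peak to the nearest other peak (y) by peak length in bp (x), where points are medians over peaks and bars run from the lower to the upper quartile. Medians decline from 364 bp under 50 bp of length to 131 bp at 5000 to 6000 bp, and broad peaks continue the course of the shorter ones.

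Broad peaks had other broad peaks beside them. Over all peaks, 4.69% of adjacent peaks on the same scaffold were broad. Beside a broad peak this share was 14.8% (7420 of 50243 neighbours, Wilson 95% interval 14.5 to 15.1%), and beside a shorter peak 4.17% (4.13 to 4.21%). The share was higher for longer members, from 11.9% beside peaks of the bin from 1000 bp to 29.4% (25.6 to 33.4%) beside those of 5000 to 6000 bp. The latter matched the 29.2% (26.5 to 32.0%) beside very long peaks within counting error. The median length of the adjacent peak was 315 bp for broad and 215 bp for shorter peaks.

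Close spacing and broad neighbours went together, and the share of broad neighbours differed also at like gaps. At gaps of 1 to 100 bp, 20.2% of the neighbours of broad peaks and 6.19% of those of shorter peaks were broad. At 1001 to 2000 bp the shares were 7.07% and 2.79%, and beyond 5000 bp they were 4.94% (3.93 to 6.19%) and 2.79%. Counting further along the scaffold, the share of broad peaks was 12.5% for the second neighbour of a broad peak, 9.63% for the fifth, 7.90% for the tenth and 6.16% for the twentieth. From shorter peaks it stayed between 4.17% and 4.69%. Within scaffolds, the share beside broad peaks exceeded that beside shorter peaks in 380 of 433 and was lower in 53, with a median difference of 9.10 percentage points.

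**Figure D3:**
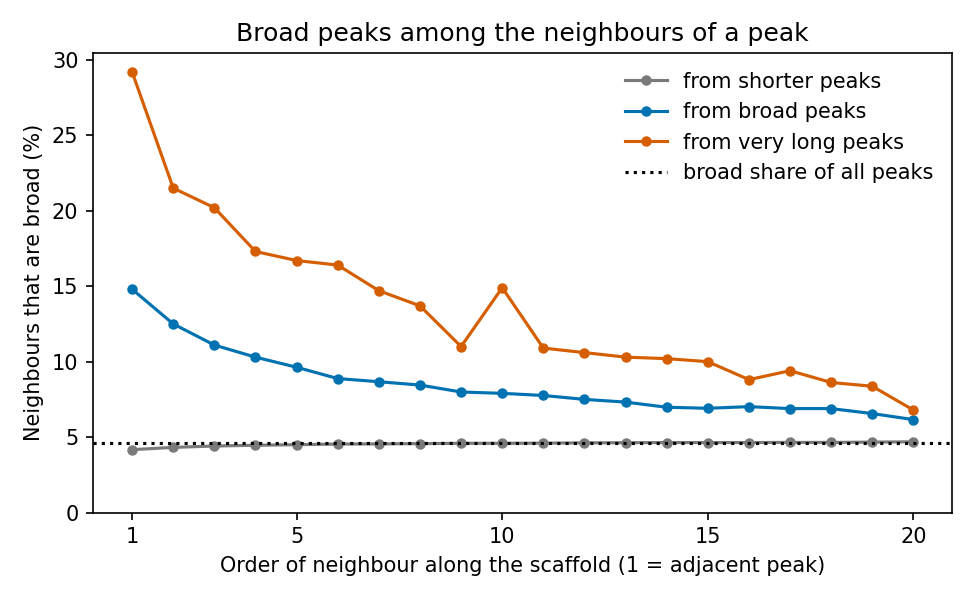
Share of neighbours that are broad peaks (y, %) by order of the neighbour on either side along the scaffold (x, 1 is the adjacent peak), starting from shorter, broad and very long peaks, with the broad share of all peaks as a dotted line at 4.62%. From broad peaks the share declines from 14.8% to 6.16% at the twentieth neighbour and stays above the dotted line throughout.

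Most broad peaks nevertheless had no other broad peak directly beside them. Of the 24835 with a neighbour on both sides, 73.8% had no broad neighbour, 22.8% had 1 and 3.37% had 2. The median distance to the nearest other broad peak was 2781 bp (2689 to 2873 bp) among the 24459 with another on their scaffold, with quartiles of 584 and 11364 bp. It was 5 kb or less for 60.8% and over 50 kb for 5.86%.

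Runs of 2 or more broad peaks with no other peak between them numbered 2873 and held 6583 broad peaks (25.7%). There were 634 runs of at least 3, 35 of at least 5 and 4 runs of 7. The run with most bases among those of 7 lay on Scaffold1363 from 37244 to 54340. Its peaks measured 1881, 1924, 4309, 1937, 1884, 2653 and 1137 bp in order, and covered 92.0% of the 17097 bp between the ends. Its gaps ranged from 30 to 479 bp, and the span exceeded the upper quartile of the length of very long peaks, 11508 bp. On Scaffold1294, the run from 152755 to 171314 was looser, with 77.8% covered and a widest gap of 1788 bp. Runs on Scaffold689 from 190813 to 204158 and on Scaffold958 from 65421 to 79144 had 92.4% and 87.8% covered. Among the 8 runs of 6 peaks, the one with most bases lay on Scaffold244 from 645173 to 667716. There, 6 peaks of 1295 to 5574 bp covered 97.1% of 22544 bp, with no gap over 225 bp.

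The flanks of broad peaks were more fully covered by other peaks. The number of peaks there was slightly higher. In the 10 kb on each side of a peak, outside the peak itself, other peaks covered a median of 37.3% of bases for broad peaks (36.9 to 37.6%, quartiles 24.3 and 52.3%) and 22.4% for shorter peaks (22.4 to 22.5%, quartiles 13.9 and 33.8%). These are the 22569 broad and 453571 shorter peaks with both windows between the first and last peak of their scaffold. In the same windows there were 16.6 ± 5.71 peaks for broad and 15.3 ± 5.97 for shorter peaks (mean ± SD over peaks). The medians were 17 and 15 peaks.

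The flanking peaks differed in kind. Around broad peaks, 14.8 ± 5.80 flanking peaks were shorter peaks and 1.78 ± 1.69 were broad, against 14.6 ± 5.77 and 0.740 ± 1.13 around shorter peaks. At least 1 broad peak was present in the flanks of 72% of broad and 41.9% of shorter peaks. Other broad peaks covered 15.0% of the flanking bases of broad peaks on average, against 5.52% of those of shorter peaks. A very long peak was in the flanks of 4.95% of broad peaks, and of 1.14% of shorter peaks.

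Flank cover was higher for longer members. It was 34.1% in the bin from 1000 bp, 43.4% in that from 2000 bp and 56.3% (51.6 to 58.5%) at 5000 to 6000 bp, where it did not differ from the 56% (53.1 to 58.1%) of very long peaks beyond counting error. The number of flanking peaks moved the other way, from 16.8 ± 5.81 in the bin from 1000 bp to 15.0 ± 5.31 at 5000 to 6000 bp. Within scaffolds, the median cover was higher for broad than for shorter peaks in 422 of 433 and lower in 11, with a median difference of 13.1 percentage points. The mean number of flanking peaks was higher for broad peaks in 323 scaffolds and lower in 110. With distance, the cover of the flanks of broad peaks of 2000 to 6000 bp declined from 54.3% at 1 to 2 kb to 40.5% at 9 to 10 kb and 34.2% at 19 to 20 kb. It had not reached the 24.2% of shorter peaks at that distance.

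**Figure D4:**
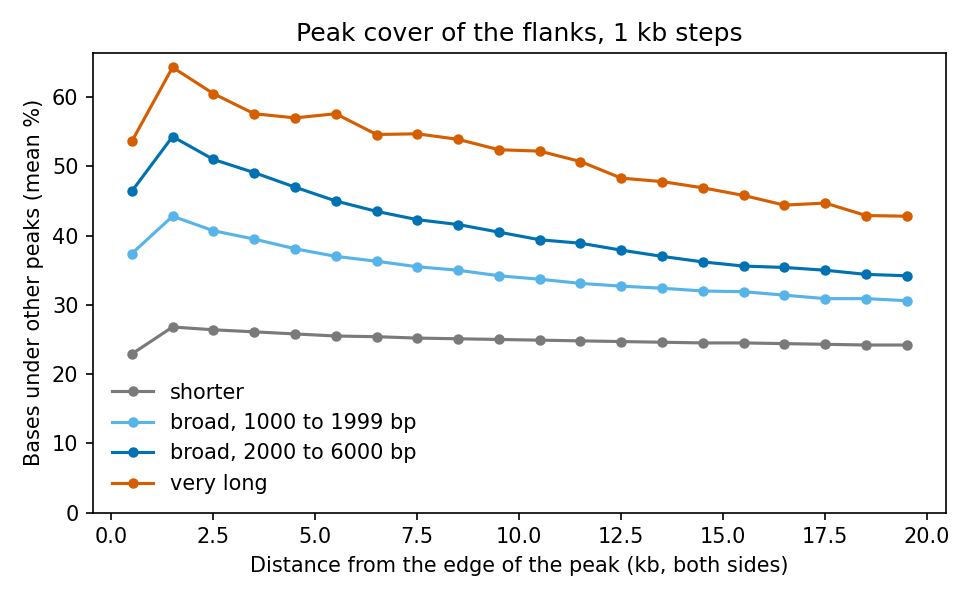
Mean share of bases under other peaks (y, %) by distance from the edge of the peak (x, kb, both sides together, steps of 1 kb) for shorter peaks, broad peaks under 2000 bp and of 2000 to 6000 bp, and very long peaks. The order of the classes holds at each step to 20 kb, and the first step is low in each class because the bases next to a peak are outside any peak by construction.

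Broad peaks occurred on 3571 of the 19230 scaffolds with a peak. Those without were mostly short, with the last peak ending at a median of 0.850 kb. On each of the 480 scaffolds with a last peak beyond 500 kb there was at least 1 broad peak, and these scaffolds held 46.1% of the members. Density on them ranged from 1.88 to 85.2 broad peaks per Mb up to the last peak, with a median of 28.0 and quartiles of 20.9 and 39.2. Scaffold569 was densest, with 43 broad peaks among 448 (9.60%). It was followed by Scaffold592 with 46 of 465 (9.89%, 77.7 per Mb) and Scaffold127 with 96 of 1100 (8.73%, 77.5 per Mb). The lowest value was that of Scaffold380, where 1 of 197 peaks was broad.

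Broad peaks were then set against the tested CRMs of 37 genes (133 upstream, 166 intronic and 90 downstream), most of them regulatory genes of the embryo, whose positions, reporter activity and ATAC-seq and dREG signals were taken from a list that accompanies the study. ATAC-seq measures how accessible chromatin is to a transposase, and dREG recognises sites of transcription initiation from the run-on assay PRO-seq. From that list only counts and ranks are given here. The letters in CRM names were read as upstream (U), intron (I) and downstream (D). CRMs of a gene often share a peak and are not replicates of each other.

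A broad peak overlapped 163 CRMs by at least 1 bp (41.9% of all, Wilson interval 37.1 to 46.9%). Of these, 116 met 1 broad peak, 43 met 2 and 4 met 3. The median share of such a CRM under broad peaks was 53.1%, with quartiles of 34.3 and 79.4%. The letters U and I met a broad peak about equally often, in 60 of 133 upstream CRMs (45.1%, 36.9 to 53.6%) and 75 of 166 intronic CRMs (45.2%, 37.8 to 52.8%), a difference of 0.0679 percentage points (Newcombe interval -11.2 to 11.2). For downstream CRMs it was 28 of 90 (31.1%, 22.5 to 41.3%), or 14.1 points below intronic CRMs (interval of the difference 1.5 to 25.6). Counted within genes that have both letters, however, the intronic share exceeded the downstream share in 11 of 28 genes and was below it in 13, while the upstream share exceeded the downstream share in 17 of 33 genes and was below it in 8. Very long peaks had another distribution over the letters: they were the longest peak of 41.6% of intronic, 13.5% of upstream and 17.8% of downstream CRMs.

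Only 162 broad peaks (0.632%) touched a CRM, and they lay in denser surroundings than broad peaks at large. Their median length was 1508 bp (1413 to 1668 bp), their median gap to the nearest peak 110 bp (94.0 to 128 bp) and the median cover of their flanks 63.9%, against 1390 bp, 173 bp and 37.3% for all broad peaks. Of these peaks 45 met at least 2 CRMs, and none met more than 3. In 31 of the 37 loci, taken from the start of the first to the end of the last CRM of a gene, the share of peaks that were broad was above the 4.62% of all peaks, with a median of 11.9% and a highest value of 66.7%. The genes were selected ones, so these loci do not stand for the genome.

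The homeobox gene Not was the only gene with each of its CRMs (3 of 3) under a broad peak. Its locus on Scaffold641 held 9 peaks, of which 6 were broad. They measured 1010, 5330, 3221, 1132, 1316 and 1561 bp in order between 329117 and 346091 and covered 74.5% of the locus. At FoxN23, a forkhead factor, 16 of 17 CRMs met a broad peak, in a locus of 83.0 kb with 22 broad peaks of 1006 to 2691 bp and no very long peak. This gene lies on Scaffold592, the second densest of the long scaffolds. Lim1, a LIM homeobox gene, had 17 of 19 CRMs under 20 broad peaks of 1236 to 3802 bp, beside 1 very long peak. None of the CRMs met a broad peak at Ecr (2 CRMs), FoxO (4), Myc (5) and Nfe2 (6). Myc and Nfe2 each had 1 very long peak in the locus, while Ecr and FoxO had neither class. Over the 37 genes, the share of CRMs under a broad peak had a median of 36.4% and quartiles of 22.2 and 50.0%.

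For the comparison with reporter activity each CRM was placed in the class of its longest overlapping peak. In this way 145 CRMs (37.3%) were of the broad class, 135 of the shorter and 103 of the very long class, and 6 met no peak. Over all letters CRM length was alike, with medians of 3040, 3000 and 2910 bp in the broad, shorter and very long class. In the same order the medians were 3046, 2740 and 3115 bp for upstream CRMs. They were 3115, 3204 and 2924 bp for intronic and 2736, 3064 and 2705 bp for downstream CRMs. The share of CRM length in the values below was not tested. Active CRMs are those with a reporter level at least 2-fold that of the basal promoter. At 24 h, 17.2% of all CRMs were active. In the broad class the share was 18.6% (27 of 145, interval 13.1 to 25.7%), which is near that background and by itself says nothing of the class. It lay between the shorter class, with 6.67% (9 of 135, 3.55 to 12.2%), and the very long class, with 30.1% (31 of 103, 22.1 to 39.5%). The difference from the shorter class was 12 percentage points (Newcombe interval 4.17 to 19.7) and that from the very long class -11.5 points (-22.4 to -0.761). Whatever their longest peak, CRMs that met a broad peak were active in 34 of 163 cases (20.9%, 15.3 to 27.7%). Those that met none, CRMs of the very long class among them, were active in 33 of 226 (14.6%, 10.6 to 19.8%), and these intervals overlap. The difference from the shorter class varied with the time and the level called active, but the intervals overlapped and the variation was not tested. At 12 h, when 12.3% of all CRMs were active, it was 6.49 points (-0.435 to 13.5), with 12.4% in the broad and 5.93% in the shorter class. The peaks are of 20 h embryos, so both the 12 h and the 24 h activity are set against peaks of another age. The paper also points out this mismatch for its 24 h reporter values. At 24 h the difference was 7.28 points (0.768 to 14.0) with a 3-fold level and 13.7 points (4.71 to 22.4) with a 1.5-fold level. Of the 30 genes with CRMs in both the broad and the shorter class, the active share was higher in the broad class in 15, lower in 3 and equal in 12. Against the very long class it was higher in 5 of 16 genes and lower in 11.

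Upstream CRMs accounted for most of the active members, with 19 of 27. Among upstream CRMs of the broad class 34.5% were active (19 of 55, interval 23.4 to 47.7%), against 8.62% (5 of 58, 3.74 to 18.6%) in the shorter class and 72.2% (13 of 18, 49.1 to 87.5%) in the very long class, with 27.8% for upstream CRMs of any class. Intronic CRMs gave another picture. Those of the broad class were active in 5 of 63 cases (7.94%, 3.44 to 17.3%), those of the shorter class in 3 of 32 (9.38%, 3.24 to 24.2%) and those of the very long class in 18 of 69 (26.1%, 17.2 to 37.5%), where 15.7% of intronic CRMs of any class were active. The difference between the broad and the shorter class was thus 25.9 points (10.9 to 40.0) for upstream and -1.44 points (-16.9 to 9.73) for intronic CRMs. At 12 h the difference for upstream CRMs was 15 points (1.36 to 28.6). Whatever the longest peak, a broad peak overlapped 23 of 37 active and 37 of 96 inactive upstream CRMs at 24 h. For intronic CRMs these were 8 of 26 active and 67 of 140 inactive ones, and for downstream CRMs 3 of 4 and 25 of 86. The difference between letters was not tested. The paper reports that CRMs overlapping a promoter were more often active than other CRMs. Promoter overlap was not separated here, so its share in these values was not tested. Downstream CRMs were active in 3 of 27 cases in the broad class, 1 of 45 in the shorter class and 0 of 16 in the very long class (interval 0 to 19.4%), with 4.44% of downstream CRMs of any class, and are too few to compare.

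The presence of ATAC and of dREG signal differed to unlike extents between the classes. ATAC signal at 20 h was above 0 in 80.2% of all CRMs and in 124 of 145 of the broad class (85.5%, interval 78.9 to 90.3%), which includes the background, in 74.1% of the shorter class and in 85.4% of the very long class. The dREG signal at 20 h was above 0 in 49.4% of all CRMs. In the broad class it was so in 87 of 145 (60.0%, 51.9 to 67.6%), against 46 of 135 in the shorter class (34.1%, 26.6 to 42.4%) and 59 of 103 in the very long class (57.3%, 47.6 to 66.4%). The broad class thus exceeded the shorter class by 25.9 points (14.3 to 36.6) and differed from the very long class by 2.72 points (-9.50 to 15.0). Both signals were present in 80 CRMs of the broad class (55.2%), against 29.6% of the shorter and 52.4% of the very long class. Neither was present in 14 CRMs of the broad class (9.66%), against 21.5% and 9.71%. Among CRMs of any class, both were present in 61.7% of upstream, 35.5% of intronic and 36.7% of downstream CRMs, and neither in 13.5%, 17.5% and 13.3%.

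The difference in dREG signal between the broad and the shorter class was again widest for upstream CRMs, although the differences between letters were not tested. Upstream CRMs of the broad class had dREG signal in 46 of 55 cases (83.6%, 71.7 to 91.1%), against 39.7% in the shorter class and 63.9% of upstream CRMs in all. For intronic CRMs the shares were 38.1% (24 of 63, 27.1 to 50.4%) in the broad and 25% (13.3 to 42.1%) in the shorter class, with 40.4% of intronic CRMs in all. For downstream CRMs they were 63.0% (17 of 27, 44.2 to 78.5%) and 33.3% (21.4 to 47.9%), with 44.4% in all. By rank among all CRMs, where 100 is the highest, the median percentile of ATAC signal was 65.8 in the broad, 37.3 in the shorter and 53.2 in the very long class. The median percentile of 24 h reporter level was 56.4, 38.4 and 68.6 in the same order, and that of dREG signal 61.7, 25.4 and 76.1. By these medians, the broad class ranked above the very long class in ATAC signal and below it in reporter level and in dREG signal, although the shares of CRMs with any dREG signal were alike. For upstream CRMs alone the order of the ATAC percentiles did not hold, with 78.1 in the broad and 89.9 in the very long class, and those of dREG were 73.5 and 91.8. For intronic CRMs the dREG percentiles were 25.4, which is the rank of CRMs with no signal, in the broad and 66.1 in the very long class.

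**Figure D5:**
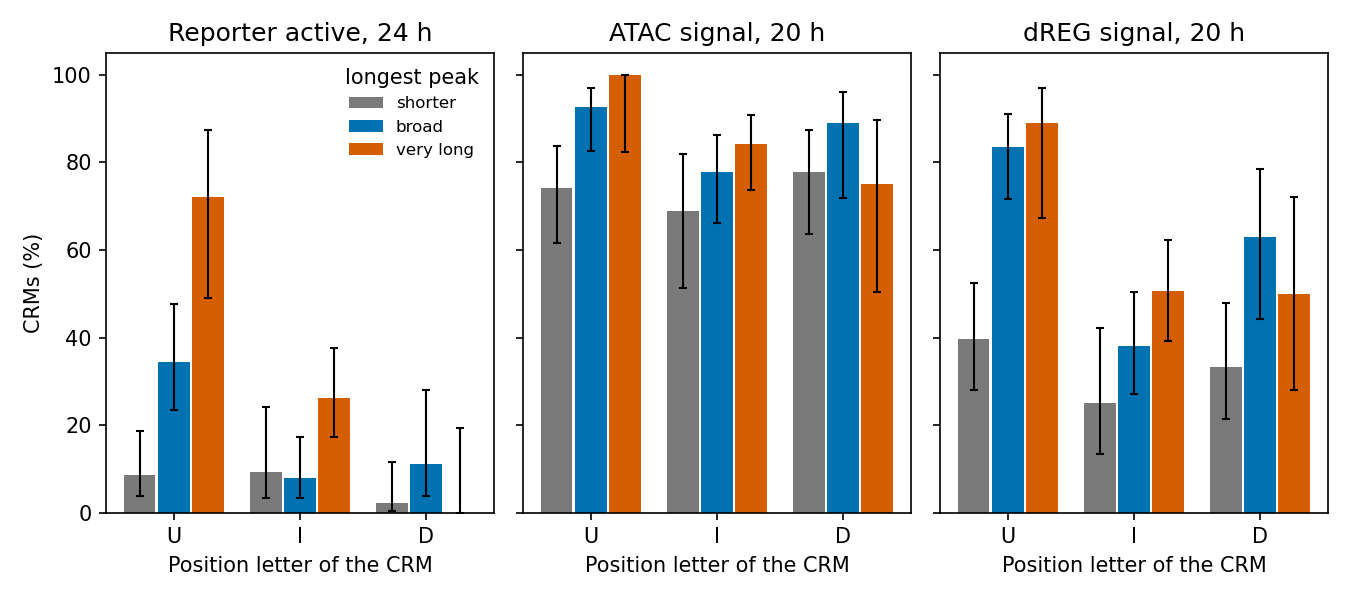
Share of CRMs (y, %) that were active at 24 h, had ATAC signal or had dREG signal at 20 h, by position letter (x) and class of the longest overlapping peak (bar colour), with Wilson 95% intervals as error bars. Among upstream CRMs the active share steps from 8.62% through 34.5% to 72.2%, whereas among intronic CRMs the broad class (7.94%) lies with the shorter class (9.38%).

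The members over the most CRM sequence illustrate both outcomes. A peak of 5037 bp on Scaffold1640 from 170980 to 176016 lay entirely in Dach_If_02, an inactive intronic CRM of Dach, which encodes a transcriptional cofactor related to dachshund. That CRM had 5908 bases under 2 broad peaks, and ranked at the 93.1 percentile for ATAC and the 91.0 percentile for dREG signal. On Scaffold344, a peak of 4890 bp from 527555 to 532444 lay under 3 CRMs of Bmp24, a ligand of the BMP family, 2 of them active. Another of 3701 bp from 520111 to 523811 lay under 3 upstream CRMs of the same gene, 1 of them active. On the same scaffold a peak of 3881 bp from 488621 to 492501 met 3 CRMs of Univin, a ligand of the TGF-beta superfamily, 2 of them active. At the T-box gene Tbx23, the peak of 5176 bp on Scaffold364 from 466709 to 471884 met 2 inactive CRMs. At Chordin, a BMP antagonist, 1 of 4356 bp on Scaffold1440 from 83985 to 88340 also met 2 inactive CRMs. The Z13 peak of 3278 bp on Scaffold2368 from 308 to 3585 met an upstream, an intronic and a downstream CRM, of which 1 was active. At Ese, a peak of 3382 bp on Scaffold1386 from 89698 to 93079 met 3 CRMs with 1 active. The last of the 10 were a peak of 3264 bp at Lim1 on Scaffold857 from 203693 to 206956, with 2 inactive CRMs, and a peak of 3574 bp at the zinc finger gene GataC on Scaffold704 from 558498 to 562071, with 1 inactive CRM.

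Among CRMs of the broad class, those of highest 24 h reporter level were Univin_Ir_01-2 (rank 2 of all CRMs), Chordin_Ur_03 (rank 5), Univin_Ur_01 (rank 6), Lim1_Ur_03 (rank 8) and FoxN23_Uf_04 (rank 13). Their share under broad peaks varied widely. It was 99.1% for Univin_Ir_01-2, 71.1% for Chordin_Ur_03, 37.3% for Univin_Ur_01, 87.7% for Lim1_Ur_03 and 34.2% for FoxN23_Uf_04. Only FoxN23_Uf_04 of these 5 lacked dREG signal. The 5 inactive CRMs with most bases under broad peaks were all intronic. They were Dach_If_02 with 5908 bases, Lim1_Ir_12 with 3554, Lim1_Ir_05 with 3376, GataC_If_01 with 3198 and Dach_If_01 with 3107. Each of them had ATAC signal, and both of Lim1 lacked dREG signal. Over the class, the share of a CRM under broad peaks was much the same in the 27 active and 118 inactive CRMs, with medians of 54.7% and 54.2%. The longest peak had a median of 2122 bp (quartiles 1409 and 3504 bp) at active and 1744 bp (1348 and 2880 bp) at inactive CRMs, which overlap widely.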

How the data were processed

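Pol II ChIP-seq of 20 h embryos (3 ChIP and 3 input samples) was analysed from 1 list of peak positions in bp deposited by the authors. According to the methods, the replicates were combined, 50 bp reads were aligned to version 3.1 of the genome with Bowtie 2 (version 2.2.3), and MACS 1.4.2 with its defaults called peaks over the input. The submitters' processing notes also name Bowtie 1.0.1 and CASAVA 1.8. Peaks as short as 1 bp are in the list, 21446 of them under 50 bp, and the step that made these is not given in the sources used here, so lengths and gaps depend on a step that is not known. The list holds no score, so a stricter minimum length took the place of a stricter threshold, and it holds no depth.

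Peaks were classed by length (under 1000, 1000 to 6000 and over 6000 bp). Printed starts count from 1. Gaps run from edge to edge, flanks are 10 kb on each side, and peaks alone on a scaffold have no gap. Positions, letters, activity and signals of CRMs came from a list that accompanies the study, and only counts and ranks derived from it are given. Medians carry order statistic (binomial) intervals, shares Wilson intervals, and differences of shares Newcombe intervals. No tests were made, because the list pools all replicates and the members were chosen on its values. Gene annotation of this build was not used here.

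Named were the 5 longest runs, the 3 densest scaffolds with the lowest, the 10 broad peaks over most CRM bases, the 5 CRMs of highest reporter rank and the 5 inactive ones with most broad bases, and genes with all or none of their CRMs under a broad peak. Members and lists were chosen with earlier results of these data known. On simulated data, 0 of 500 windows differed from a base-by-base count. The scripts ran in Python 3.11.15 with scipy 1.17.1, pandas 2.3.3 and numpy 2.4.6, and matplotlib 3.10.9 drew the figures.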

Additional observations from a re-analysis of the deposited data

How the results depend on the processing

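No paired analysis was possible because peaks were called once on combined replicates, which also means that no replicate could be left out. The differences between broad and shorter peaks or classes kept their direction in each alternative run. Differences from the very long class were not run again. Nor were those within a letter, apart from the active share of upstream CRMs. The shares of U and I under a broad peak, alike in the main run, changed order in some runs, as with an overlap of at least 500 bp (42.1 and 40.4%). With a lower limit of 1500 bp, there were 10763 broad peaks, and broad peaks differed from shorter peaks by -141 bp in median gap, by 9 percentage points in the share of broad neighbours and by 19.3 points in flank cover, where the reported differences are -123 bp, 10.6 and 14.9 points. CRMs under such a peak were 27.5% in all, 30.1% of U, 31.9% of I and 15.6% of D. With fewer peaks classed as broad at this limit, both shares of broad neighbours were lower. They were 10.7% beside broad and 1.67% beside shorter peaks, against 14.8% and 4.17% in the main run. Leaving out peaks under 150 bp gave differences of -177 bp, 11 and 13.8 points. Joining peaks 100 bp or less apart gave 31419 broad peaks and differences of -140 bp, 11.4 and 14.0 points. Scaffolds with a last peak beyond 500 kb held 11819 broad peaks and gave -114 bp for the gap and 15.3 points for flank cover. Against shorter peaks of at least 300 bp the values were -62.0 bp, 8.79 and 10.4 points. Windows of 5 and 20 kb gave flank differences of 17.6 and 11.7 points. For the number of peaks a change of over 1.5 times, and for other values a move beyond the counting interval, was found in 22 of 69 cases. Each alternative value for spacing and for flank cover moved in this way, and so did most for broad neighbours. Among the CRM values, only the shares under a broad peak with a lower limit of 1500 bp moved. The interval of the difference in ATAC signal between the broad and shorter class reached 0 with an overlap of at least 500 bp (2.25 points, -7.89 to 14.0), with a lower limit of 1500 bp (7.65 points, -3.59 to 18.0) and with 1 CRM of each overlapping set (8.86 points, -1.40 to 18.9), and without the gene Nk1 (9.41 points, -0.131 to 19.0). That of the active share did so at 12 h (6.49 points, -0.435 to 13.5). With any 1 of the 37 genes removed, the range was 10.8 to 13.7 points for the active share, 23.0 to 31.1 points for upstream CRMs, 9.41 to 13.5 points for ATAC and 23.2 to 30.8 points for dREG, and 39.5 to 43.0% of CRMs under a broad peak.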

Other observations

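A small number of broad peaks stood far from any other. Of the 25408 with a neighbour on their scaffold, 135 (0.531%) had none within 5 kb, against 1.02% of shorter peaks. A further 217 of all 25625 broad peaks were the only peak of a scaffold, against 9322 of all 528691 shorter peaks. The most isolated were a peak of 1390 bp on Scaffold410 from 563410 to 564799, with 54290 bp to the nearest peak, a peak of 1231 bp on Scaffold414 from 495804 to 497034, with 44536 bp, and a peak of 1249 bp on Scaffold4253 from 41058 to 42306, with 40374 bp. No very long peak had a gap over 5 kb.

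Only 15 CRMs lay entirely within 1 broad peak. Of these, 3 were active at 24 h (20.0%, 7.05 to 45.2%), near the 17.2% of all CRMs, namely Bmp24_Ur_01, Dlx_Dr_01 and SoxB1_Df_03. Both ATAC and dREG signal at 20 h were present in 13 (86.7%, 62.1 to 96.3%). Among all CRMs, 61.7% of upstream, 35.5% of intronic and 36.7% of downstream ones had both. The other 2, Dach_If_10 and Sip1_Ir_08, had neither signal, although peaks of 3168 and 5203 bp covered them. Nk22_Df_04, under a peak of 1770 bp, had both signals and was at rank 376 in reporter level, with rank 1 the highest. These CRMs were singled out after their values were seen.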
